A study of Astatotilapia calliptera with 66 samples.

Results

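The 12 wild littoral males of Lake Masoko whose liver methylomes were read by reduced-representation bisulphite sequencing (RRBS) were divided by the carbon isotope ratio of their muscle. *Astatotilapia calliptera* is a cichlid fish, and the littoral ecomorph is the one that lives in the shallow water of this crater lake. A total of 6 littoral fish had a ratio below −22‰ (G08G02, G08G03, G08H08, G08I06, G10H04 and G10H05) and 6 had a ratio above it (G08H10, G10G05, G10G06, G10G09, G10G10 and G10H02). They were 12 of 35 livers with RRBS data, beside 11 riverine and 12 benthic males, and the series holds 66 samples in all. The fish nearest to the threshold were at −22.14‰ and −21.95‰, so the threshold divides neighbouring values. All fish were wild-caught adult males, sampled as homogenized liver, and none had been treated. Liver RNA was available for 4 of the 12 fish, G10H04 and G10H05 below the threshold and G08H10 and G10G05 above it.

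The carbon isotope ratio of a consumer follows that of the carbon at the base of its food web, and attached algae of the shore are usually less depleted in the heavy isotope than open-water plankton. Muscle carries this signal over weeks to months of feeding. DNA methylation at CG dinucleotides is copied by DNMT1 at each cell division, and most CG sites of a vertebrate genome are either methylated in nearly all DNA molecules of a tissue or in almost none. A site with an intermediate level carries the mark in part of the molecules of a liver. The comparison asks whether littoral fish of unlike carbon source differ in their liver methylomes.

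The fish below and above the threshold were also compared in other respects, and these values stand before the results. Mapped RRBS reads were 4.02 Mio at the lowest, 6.73 Mio at the median and 14.4 Mio at the highest in fish below the threshold, against 5.51, 8.71 and 14.8 Mio in fish above it. The log10 number of mapped reads did not pass the test (difference −0.09, two-sided exact permutation p = 0.42). The share of reads that mapped averaged 83.0 ± 1.44% below and 85.0 ± 0.85% above the threshold (SD, n = 6 each; difference −1.95 points, two-sided exact permutation p = 0.026, adjusted p = 0.14 over 11 measures added after the values had been seen). Fish IDs that start with G08 made up 4 of the 6 fish below the threshold but 1 of the 6 above it. What this prefix stands for is not given in the sources used here.

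The share of CG sites with an intermediate level was lower in fish below the threshold. A site was counted where it was between 20 and 80% methylated, over all 151900 CG sites of the table. The lowest, median and highest shares were 13.02, 13.41 and 13.76% in fish below the threshold, against 13.73, 14.20 and 15.26% in fish above it. A single fish below the threshold, G10H05 with 13.76%, lay over the lowest fish above it, G08H10 with 13.73%. The means were 13.39 ± 0.27% and 14.36 ± 0.60% (SD, n = 6 each), a difference of −0.97 points (two-sided exact permutation p = 0.0043, adjusted p = 0.043 over 10 summaries). Where values of exactly 20 or 80% were not counted, a limit chosen after the values had been seen, the 6 and 6 fish did not overlap and the difference was −0.99 points (exact permutation p = 0.0022, the smallest p this number of fish allows).

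The call for this difference was lost under other limits, and with the number or the share of reads mapped taken into account. With limits of 10 and 90% it was −1.795 points (exact permutation p = 0.22), and with limits of 30 and 70% it was −0.40 points (exact permutation p = 0.078). It was −0.50 points (exact permutation p = 0.14) once each share was taken as its residual on the share of reads mapped. The share of reads mapped was lower on average in fish below the threshold, without passing after adjustment. The class was not in the fit that gave these residuals, so any part common to class and share of reads mapped was removed too. The value therefore cannot tell how much of the difference goes with the share of reads mapped. As residuals on log10 mapped reads the shares differed by −0.90 points (exact permutation p = 0.011, adjusted p = 0.097), and in the 3 fish below and 5 above the threshold that had 6 Mio mapped reads or more by −1.07 points (exact permutation p = 0.071, adjusted p = 0.36). Among the 7 fish with a G10 prefix, the difference was −1.02 points with 2 fish below the threshold (exact permutation p = 0.095). Among the 5 fish with a G08 prefix, the difference was −0.38 points with 1 fish above the threshold. With so few fish in these prefix subsets, and in that with 6 Mio reads or more, this share alone could not have passed after adjustment. Those subsets therefore cannot decide whether the difference holds. The adjusted p passed 0.05 in 6 of the 12 fits that left out a fish and failed without G08G02, G08G03, G08H08, G08I06, G10H04 or G10G06.

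**Figure D1:**
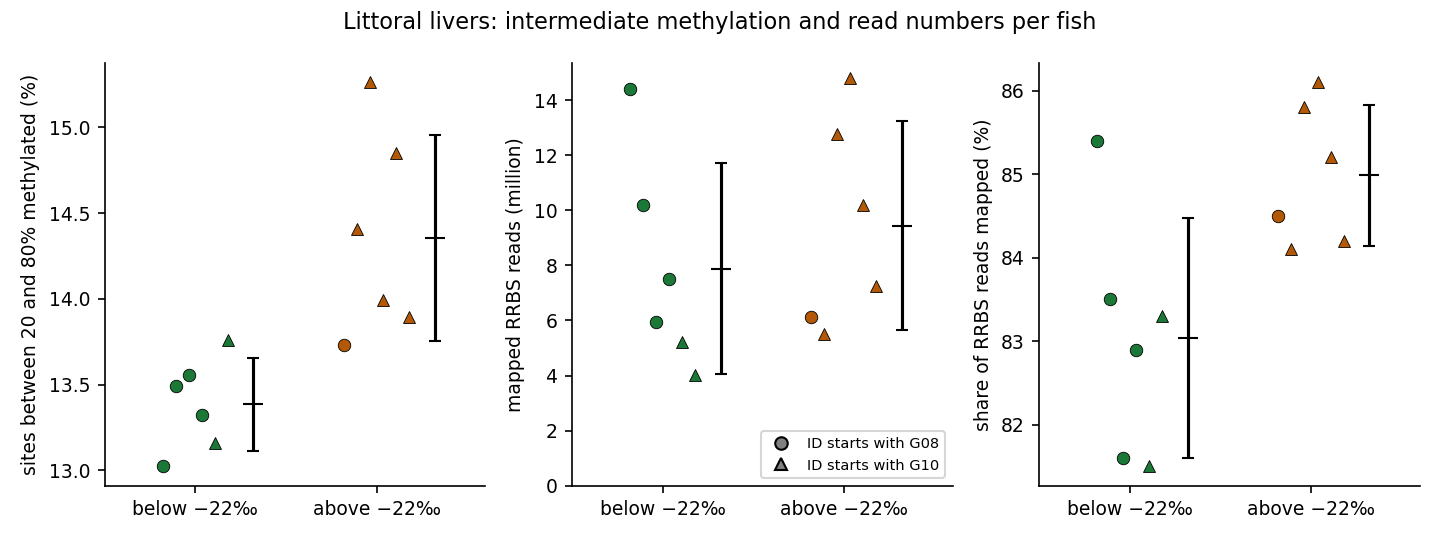
Share of CG sites between 20 and 80% methylated (left, %), mapped RRBS reads (middle, Mio) and share of reads mapped (right, %) of each littoral liver, below −22‰ left of above −22‰. Symbols give the prefix of the fish ID and bars the mean ± SD (n = 6 each). The shares of intermediate sites run from 13.02 to 13.76% below the threshold and from 13.73 to 15.26% above it. The share of reads mapped is lower on average below the threshold, and the classes overlap.

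Riverine livers had shares of intermediate sites between 14.5 and 16.8% (n = 11) and benthic livers between 12.6 and 14.3% (n = 12). All 6 littoral fish below the threshold thus lay inside the benthic range and under the lowest riverine fish. In fish above the threshold, the shares lay across both ranges. By site class, set from the mean of the 23 riverine and benthic fish, none of the shares passed a test of its own. At high sites, over 80% methylated in those fish, 11.0 ± 1.81% of values were intermediate below the threshold and 12.2 ± 0.89% above it (SD, n = 6 each; exact permutation p = 0.18). At low sites, under 20% methylated, the shares were 2.10 ± 0.46% and 2.43 ± 0.48% (exact permutation p = 0.25).

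No other summary of the methylome passed the test. Mean methylation over all sites was 55.4 ± 0.43% below the threshold and 55.3 ± 0.51% above it (adjusted exact permutation p = 0.88). At the 78341 high sites it was 93.2 ± 0.15% and 92.6 ± 0.68%, where the fish above the threshold spread more widely (adjusted exact permutation p = 0.33). At the 54663 low sites it was 1.657 ± 0.10% and 1.716 ± 0.13%, and at the 18896 sites between them 54.4 ± 2.93% and 55.6 ± 1.33% (adjusted exact permutation p = 0.74 for each). The 123 sites of the mitochondrial sequence, which in animals carries little CG methylation, averaged 2.00 ± 1.32% in fish below the threshold and 1.54 ± 0.64% in fish above it (SD, n = 6 each; adjusted exact permutation p = 0.74). The highest mitochondrial value was 4.26% in G08H08 and the lowest 0.58% in G08G02, both below the threshold, so fish of that class held both ends of the range.

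PC1, PC2 and PC3 of the 12 livers carried 10.34, 10.03 and 9.47% of the variance, so no axis stood out. Neither PC1 nor PC2 passed the test between isotope classes. In a PCA without scaling of the sites, PC1 differed by −1308 (exact permutation p = 0.013, adjusted p = 0.065). PC2 of that PCA differed by 429 (exact permutation p = 0.90, adjusted p = 0.90). The sign of a PC is arbitrary and was set so that its scores rose with the log10 number of mapped reads. PC1 scores averaged −24.8 ± 126 below and 24.8 ± 114 above the threshold (SD, n = 6 each; adjusted exact permutation p = 0.74). They rose with the log10 number of mapped reads over the 12 fish (Pearson’s r = 0.91, permutation p = 1e-05, the smallest the permutations can give, adjusted p = 0.00021 over 21 relations). Spearman’s rho was 0.91 (permutation p = 0.00015 and adjusted p = 0.0029). Without the 2 fish farthest from the median number of reads r was 0.95, and among the 7 fish with a G10 prefix it was 0.94. A fish’s distance to the others of its class, as 1 minus Pearson’s r over all sites, fell with the number of mapped reads in the same way (r = −0.86, permutation p = 5e-04, adjusted p = 0.0053; rho = −0.88, permutation p = 0.00028, adjusted p = 0.0029; r = −0.84 without those 2 fish and −0.94 among G10 fish). None of the other 19 relations passed. The share of intermediate sites rose with the carbon isotope ratio before adjustment only (r = 0.60, permutation p = 0.039, adjusted p = 0.27; rho = 0.68, permutation p = 0.018, adjusted p = 0.13). That r was 0.68 without the 2 fish farthest from the median ratio and 0.79 within the G10 fish.

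**Figure D2:**
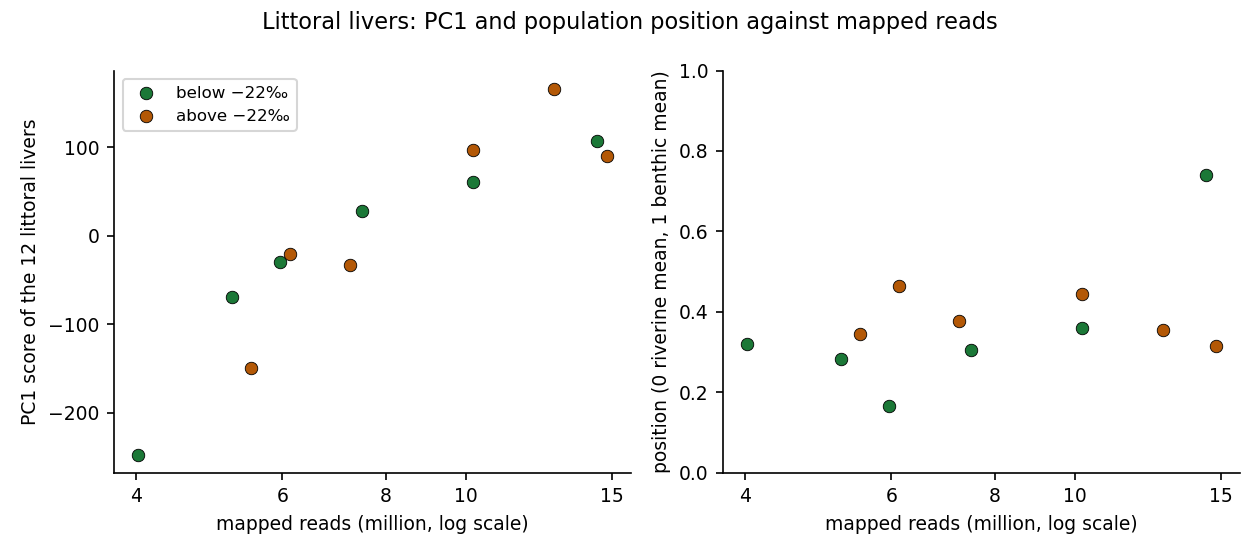
PC1 score of the 12 littoral livers (left) and their position between the riverine mean at 0 and the benthic mean at 1 (right) against mapped reads (Mio, log scale), 1 point per fish. PC1 rises with reads in fish of both classes (r = 0.91), and the fish at 0.74 in the right panel is G08G02.

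Littoral fish on both sides of the threshold lay between riverine and benthic fish. At the 4488 sites called between riverine and benthic livers in a fit without littoral fish (3.12% of the 143837 sites tested), a position of 0 stands for the riverine and 1 for the benthic mean. The lowest, median and highest positions were 0.17, 0.31 and 0.74 in fish below the threshold, against 0.32, 0.37 and 0.46 in fish above it. The means of 0.36 ± 0.20 and 0.38 ± 0.06 (SD, n = 6 each) did not differ beyond their spread (adjusted exact permutation p = 0.88). The highest fish, G08G02, lay inside the benthic range of 0.55 to 1.33, and G08H08 with 0.17 lay inside the riverine range of −0.13 to 0.19. Both ranges belong to the fish that chose the sites. Without G08G02, the fish nearest to the threshold in its class, the difference was −0.10 (exact permutation p = 0.030, adjusted p = 0.10).

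No single CG site passed the test between fish below and above the threshold. Of the 133003 sites that varied among the 12 fish, 0 had an adjusted p under 0.05 in limma together with a difference of at least 25 points (0%), and the smallest adjusted p was 0.83. Before adjustment, 714 sites (0.537%) had p under 0.05 and at least 25 points, and 4192 had p under 0.05 with a difference of any size. The class means differed by a median of 2.87 points in size, against a median SD within a class of 7.58 points. A difference of at least 25 points was found at 1411 sites, of which 601 were higher and 810 lower below the threshold. For classes of 6 and 6 fish that do not overlap, the exact permutation p is 0.0022, which is above the share of such sites here. The 6 and 6 fish did not overlap at 121 sites (0.091% of those tested), of which 58 were higher and 63 lower below the threshold. Of the 41 of these with at least 25 points, 8 were higher and 33 lower below the threshold. Sites intermediate in riverine and benthic fish made up 25 of the 41. They made up 1034 of the 1411 sites with at least 25 points and 18885 of the 133003 tested, so the 25 do not stand out among large differences. The same test called the 4488 sites above between riverine and benthic livers, with 11 and 12 fish.

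The lowest unadjusted p among sites with at least 25 points and no overlap belonged to position 31389398 of sequence NC_036789.1 of the *M. zebra* genome (UMD2a build, as all positions here). It was 100% methylated in all 6 fish below the threshold, against 61.5% at the lowest, 69.2% at the median and 86.5% at the highest in the 6 fish above it (difference 29.0 ± 4.34 points, SE, adjusted p = 0.83 in limma). The nearest sites, at positions 31389410 and 31389412, were 94.8 ± 6.61% and 96.1 ± 9.58% methylated below the threshold and 96.4 ± 5.10% and 96.4 ± 6.19% above it (SD, n = 6 each). The difference was thus seen at an isolated site. Position 10144073 of NC_036793.1 had the same form, 100% in all 6 fish below the threshold and between 50 and 85% in fish above it, with no such difference at 3 other sites within 50 bp.

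The largest differences of the named sites came from 4 neighbouring CG sites at positions 1058097, 1058108, 1058118 and 1058121 of NC_036786.1. Averaged over the 4 sites, methylation was 1.70% at the lowest, 9.70% at the median and 26.6% at the highest in fish below the threshold, against 44.2, 71.8 and 93.5% in fish above it. The averages did not overlap, but the rule that named positions 1058097, 1058108 and 1058121 had already required no overlap at each of them. Among fish below the threshold they were 13.5% in G08G02, 1.786% in G08G03, 26.6% in G08H08, 1.70% in G08I06, 16.3% in G10H04 and 5.88% in G10H05. Among fish above it they were 93.5% in G08H10, 44.2% in G10G05, 44.4% in G10G06, 58.3% in G10G09, 92.7% in G10G10 and 85.2% in G10H02. The fish above the threshold fell to either side of a gap between 58.3 and 85.2%.

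The 4 sites differed by −59.9 ± 10.8, −59.3 ± 10.9, −55.4 ± 13.4 and −60.4 ± 12.2 points in this order (difference ± SE, adjusted p = 0.83 in limma for each). Over 24 alternatives the lowest adjusted p in limma was 0.068 at each of positions 1058097, 1058108 and 1058121. For position 1058097 it came from the fit of all 35 livers in 4 groups. At position 1058118 the classes overlapped, since G08G02 had 43.2% there but at most 5.41% at the other 3 sites. At the next sites in the table, positions 1058840 and 1058862, fish below the threshold averaged 7.77 ± 13.3% and 5.39 ± 13.2%, against 12.3 ± 13.4% and 0% in fish above it (SD, n = 6 each). All 11 riverine fish averaged under 10% over the 4 sites, with a highest value of 7.35%. Of the 12 benthic fish, 7 averaged under 10% and 5 over 30%, up to 63.0%. The level over these sites therefore varied between fish of 1 population in benthic livers too. Whether the sites lie in a gene was not analysed here.

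**Figure D3:**
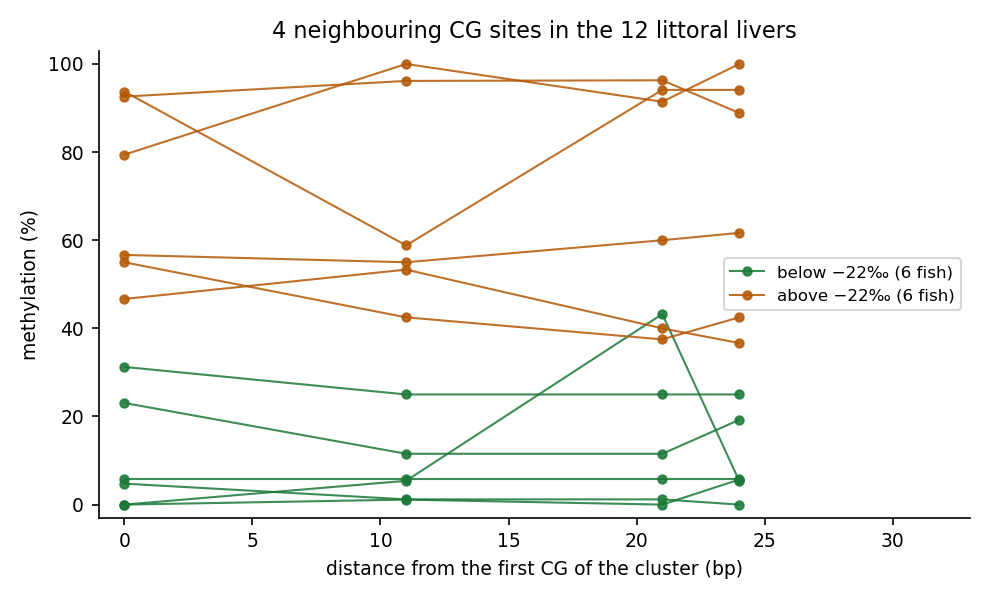
Methylation (%) at 4 neighbouring CG sites in each of the 12 littoral livers, against the distance (bp) from the first of them, with 1 line per fish. Averaged over the sites, the 6 fish below −22‰ lie between 1.70 and 26.6% and the 6 fish above it between 44.2 and 93.5%, and the classes cross only at the third site. The other sites were named by a rule that required no overlap.

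The pair of sites at positions 4810857 and 4810860 of NC_036788.1 also differed together. They were 72.7 ± 9.02% and 67.2 ± 10.6% methylated below the threshold, against 98.1 ± 3.55% and 98.0 ± 3.13% above it (SD, n = 6 each; adjusted p = 0.83 in limma for both). At the sites 14 bp before and 28 bp after them the differences were −11.0 and −5.84 points. The other named sites were position 7868333 of NC_036796.1, position 8657020 of NC_036787.1 and position 10371476 of NC_036793.1. Their differences were −36.01, −34.90 and −44.68 points, and none of them passed (adjusted p = 0.83 in limma for each). Beside 8657020, positions 8657018 and 8657029 differed by 3.31 and −0.82 points. Beside 10371476, positions 10371495 and 10371523 differed by −25.2 and −23.2 points. The classes overlapped at all of these neighbours.

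Windows of 100 bp with at least 3 sites gave the same count. Of 21849 windows, 0 passed (0%), and 35 (0.16%) had an unadjusted p under 0.05 with at least 25 points. Windows were lower below the threshold in 45 of the 63 with at least 25 points, and 3 of these 63 had no overlap between classes. The window at 1058101 to 1058200 of NC_036786.1 holds 3 of the 4 sites described above. The window at 13982301 to 13982400 of NC_036787.1, with 4 sites, was 76.2% at the lowest, 86.4% at the median and 100% at the highest below the threshold, against 50.0, 62.6 and 68.4% above it (difference 27.4 ± 4.87 points, SE, adjusted p = 0.90 in limma). All 4 of its sites had a higher mean below the threshold, by between 15.03 and 41.3 points. The classes overlapped at positions 13982320, 13982336 and 13982339. At position 13982336 they spanned 28 to 100% below and 41.8 to 100% above the threshold. Averaged over this window, benthic livers spanned 70.8 to 99.5% and riverine livers 43.5 to 79.0%. The window at 34494001 to 34494100 of NC_036795.1, with 3 sites, was 39.5 ± 22.4% below and 83.0 ± 12.3% above the threshold (SD, n = 6 each; adjusted p = 0.90 in limma).

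In liver RNA, 0 of 21147 genes passed between the 2 fish below and the 2 fish above the threshold (0%; adjusted p under 0.05 in limma, a log2 fold change of 1.5 or more in size and 10 TPM or more in any of the 4 fish, where TPM are transcripts scaled for length and library total). Fold changes are on the scale of log2(TPM + 0.1). Before adjustment, 465 genes (2.2%) met these limits. The fits without a fish gave 252 genes without G08H10, of which 240 were lower below the threshold, and 96 without G10G05, of which 89 were higher. They gave 26 genes without G10H05 and 1 without G10H04. Over all genes the log2 fold changes had a median of 0.06 with all fish, and a median of −0.35 without G08H10 and 0.56 without G10G05. With the run as a covariate 251 genes passed, of which 238 were lower below the threshold. In each of these fits a class has a lone fish, which is assumed to vary like the other groups. The run covariate leaves G10G05 as the lone fish above the threshold, so it repeats the contrast of the fit without G08H10. G08H10 was the only one of the 4 sequenced in the run of shorter paired reads, with all riverine fish. The others were sequenced in the run of longer reads, with all benthic fish. The authors had trimmed the longer reads to the length of the shorter ones before expression was estimated.

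G10G05 stood apart from the other 3 livers, with correlations of 0.82 to 0.84 over genes on the log2 scale, against 0.87 to 0.91 among the others. Its summed leukocyte genes (7 of 20 listed were measured, *ptprc*, *lcp1*, *lck*, *cd79a*, *cd79b*, *plek* and *irf8*) reached 41.3 TPM, against 9.89 TPM in G10H04, 7.99 TPM in G10H05 and 4.54 TPM in G08H10. The pancreatic gene *cpb1*, a digestive carboxypeptidase, was at 1620 TPM in G10G05 and between 443 and 835 TPM in the others. *cd36*, a fatty acid receptor, had 111 TPM in G10G05 and at most 0.03 TPM in the other 3. Hepatocyte genes (7 of 27 measured) summed to 44748 and 44054 TPM below the threshold and to 26800 TPM in G08H10 and 36369 TPM in G10G05. Of these 7 genes 5 were higher and 1 was lower in both livers below the threshold than in both above it, against 14.4% and 12.5% of all genes. Their median log2 fold change was 0.52, against 0.06 over all genes. Of 20 erythroid genes 3 were measured, at 110 to 211 TPM in all, nearly all of it *blvrb*, and of 20 muscle genes 0 were measured. In whole liver, fewer cells of a type and less RNA per cell cannot be told apart, and the part of these differences in the results below was not tested.

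Most measured genes of amino acid breakdown, 19 of 25, had a higher mean log2 level below the threshold, which describes these 4 livers only. So did 11403 of the 21147 genes tested and 6 of the 7 hepatocyte genes. Of 25 measured genes of 42 listed, 0 passed, 7 had an unadjusted p under 0.05 and were higher below the threshold, and 0 were lower by that measure. Over all genes tested these shares were 4.07% and 3.01%. In 11 of the 25 both livers below the threshold lay over both above it, and in 3 under both, while over all genes these shares were 14.4% and 12.5%. The median log2 fold change was 0.57 in the list and 0.06 over all genes. Relative to all genes it ran between −0.45 and 0.85 over the alternatives, with the lowest value in the fit without G10G05.

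Of the genes with no overlap, 6 are given with their values, chosen after these had been seen. *pah*, which turns phenylalanine into tyrosine, had 648 and 443 TPM below the threshold and 90.5 and 118 TPM above it (log2 fold change 2.37 ± 0.56, SE, adjusted p = 0.34 in limma). *fah*, the last enzyme of tyrosine breakdown, had 305 and 294 TPM below and 179 and 80.8 TPM above. *hal* and *uroc1*, the opening steps of histidine breakdown, had 62.0 and 40.1 TPM and 95.9 and 47.5 TPM below, against 18.1 and 19.99 TPM and 24.98 and 16.5 TPM above. *tdo2*, which opens the tryptophan ring, had 1057 and 775 TPM below and 366 and 486 TPM above. *got1*, an aspartate transaminase, had 72.6 and 86.6 TPM below and 8.59 and 35.01 TPM above (log2 fold change 2.18 ± 0.62, SE, adjusted p = 0.53 in limma). Other members of the same routes overlapped between classes, *hgd*, *gstz1* and *tat* of tyrosine breakdown and *kmo*, *kynu* and *haao* of tryptophan breakdown. *hgd*, which opens the ring of homogentisate, had 642 and 396 TPM below and 441 and 182 TPM above. The 3 genes lower in both livers below the threshold were *mccc2*, *pcca* and *pccb*, subunits of mitochondrial carboxylases. *pccb* had 5.94 and 4.06 TPM below and 9.96 and 8.28 TPM above. The hepatocyte genes above had a median close to that of this list, and their part in it was not tested. Riverine livers held *pah* at 864 to 1199 TPM and benthic livers at 173 to 783 TPM.

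Fatty acid oxidation and fatty acid synthesis lay on opposite sides of the median of all genes. Of 22 measured oxidation genes of 32 listed, 9 were higher in both livers below the threshold than in both above it and 0 were lower in both, against 14.4% and 12.5% of all genes, with a median log2 fold change of 0.48. The median of the hepatocyte genes was 0.52, and their part in this was not tested. *acadvl*, which starts the oxidation of long-chain fatty acids, had 212 and 79.7 TPM below and 32.4 and 58.0 TPM above (log2 fold change 1.58 ± 0.49, SE, adjusted p = 0.61 in limma). *acadl*, a related dehydrogenase, had 158 and 99.6 TPM below and 53.6 and 58.1 TPM above. Of 11 measured synthesis and elongation genes of 31 listed, 0 were higher in both and 6 were lower in both, beside the same 14.4% and 12.5% of all genes, with a median of −0.85. Relative to all genes, the medians ran between −0.08 and 0.75 for oxidation and between −1.13 and −0.11 for synthesis over the alternatives. That of oxidation turned sign in the fit without G10G05. That of synthesis was −0.91 with all fish but −0.11 without G08H10 and with the run as a covariate. No gene of either list passed.

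G08H10 held the highest level of the named synthesis genes. *elovl6*, which elongates palmitate, had 0.60 and 0.24 TPM below the threshold, against 118 TPM in G08H10 and 1.99 TPM in G10G05. *acly*, which supplies acetyl-CoA in the cytosol, had 0.98 and 0.84 TPM below, against 49.1 TPM in G08H10 and 4.37 TPM in G10G05. *gck*, the glucokinase of liver, had 6.16 and 0.30 TPM below, against 2928 TPM in G08H10 and 2.08 TPM in G10G05, and riverine and benthic livers did not exceed 1.599 TPM. The sterol synthesis gene *idi1* had 15.02 and 16.4 TPM below, against 196 TPM in G08H10 and 17.0 TPM in G10G05. For *gck* and *idi1* G10G05 was thus close to the livers below the threshold.

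Sterol synthesis genes (22 measured of 33 listed) had a median log2 fold change of −0.97. Relative to all genes it ran between −2.51 and 0.26 over the alternatives. It was above 0 without G08H10 and, as the same contrast, with the run as a covariate. In both livers below the threshold 3 genes (13.6%) were higher and 5 (22.7%) lower, against 14.4% and 12.5% of all genes, so the share that was higher lay at that of all genes. The 3 were *insig1*, *ldlr* and *scap*, none of which is an enzyme of the pathway. *insig1*, which retains the sterol sensor in the endoplasmic reticulum, had 483 and 361 TPM below and 62.3 and 136 TPM above, and *ldlr*, a lipoprotein receptor, had 32.4 and 13.6 TPM below and 4.64 and 9.24 TPM above. Triglyceride genes (15 measured of 34 listed) had a median log2 fold change of −0.06, and relative to all genes it ran between −0.31 and 0.65. In both livers below the threshold 3 of them (20%) were higher and 2 (13.3%) lower, near the shares of all genes. Among these, *plin2*, which coats lipid droplets, had 275 and 287 TPM below and 23.7 and 73.6 TPM above (log2 fold change 2.75 ± 0.81, SE, adjusted p = 0.56 in limma). *dgat2*, the last step of triglyceride synthesis, had 24.5 and 21.5 TPM below and 110 and 45.1 TPM above.

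The lists of one-carbon metabolism and DNA methylation (16 measured of 34), bile acids (5 of 22) and glycolysis and gluconeogenesis (8 of 35) had medians of −0.07, −0.59 and 0.11. Over the alternatives these medians, not set against all genes, ran between −0.31 and 0.18, between −0.90 and −0.05 and between −0.04 and 0.40. The median of one-carbon genes was above 0 without G08H10, without G10H05 and with the run as a covariate. That of bile acid genes was nearest to 0 without G10H04, and that of glycolysis genes was under 0 with median-of-ratios scaling. Relative to all genes the medians ran between −0.87 and 0.43, between −1.46 and 0.06 and between −0.16 and 0.55, so that of each list turned sign. In the first of these, 0 genes had an unadjusted p under 0.05 in either direction, and 2 were higher and 2 lower in both livers below the threshold (12.5% each, against 14.4% and 12.5% of all genes). In the last, *pck2*, which feeds gluconeogenesis, had 193 and 234 TPM below the threshold and 24.9 and 149 TPM above it.

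**Figure D4:**
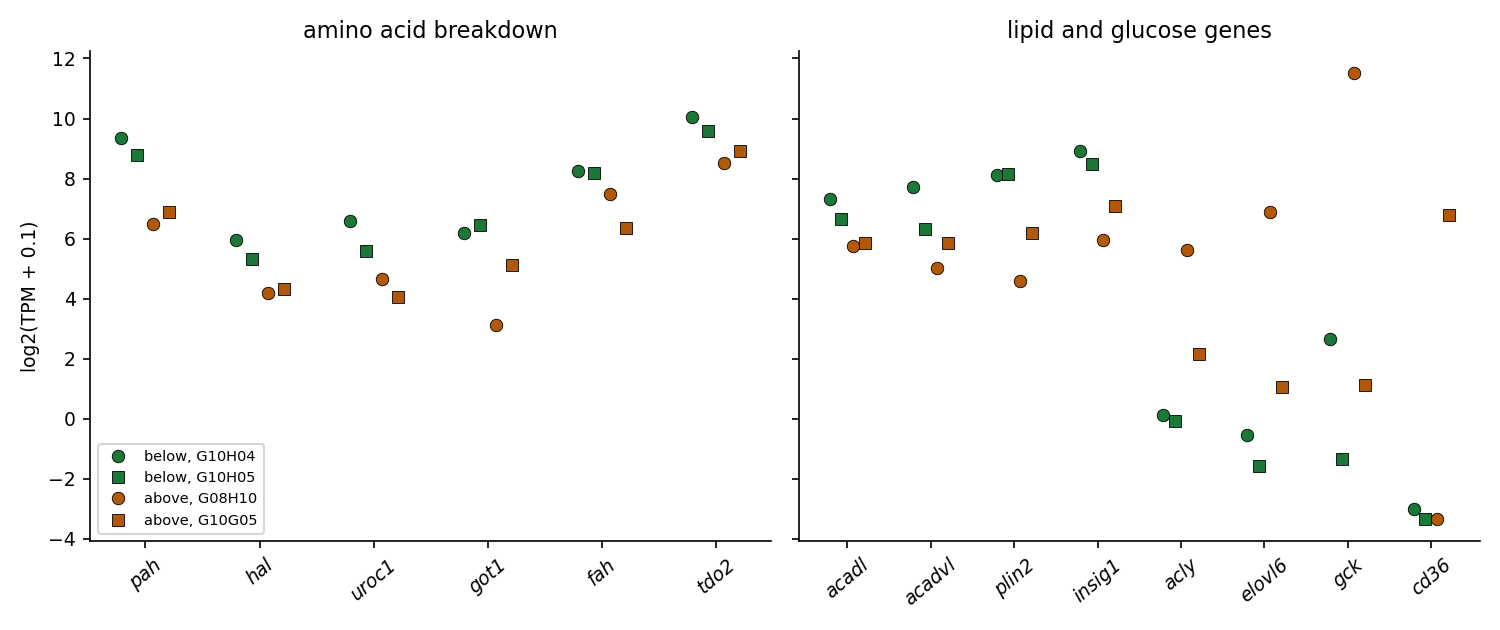
Expression on the scale of log2(TPM + 0.1) of 6 genes of amino acid breakdown (left) and 8 genes of lipid and glucose metabolism (right) in the 4 littoral livers with RNA, with the 2 fish below −22‰ left of the 2 fish above it for each gene. The 6 genes on the left were chosen, after their values were seen, from genes higher in both livers below the threshold. The 3 genes of this list that were lower in both are not drawn. On the right, *gck* is high in G08H10 alone and *cd36* in G10G05 alone, and no gene passed the test.

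By the rule of lowest p, the named genes with a symbol included *oat*, *mal2* and *slc25a48*. *oat*, which passes the nitrogen of ornithine on to 2-oxoglutarate, had 1535.8 and 864 TPM below the threshold and 140.0 and 167 TPM above it (log2 fold change 2.91 ± 0.56, SE, adjusted p = 0.23 in limma). Both livers below the threshold exceeded all riverine livers (76.8 to 377 TPM) and benthic livers (392 to 620 TPM). *slc25a48*, a mitochondrial carrier, had 125 and 92.3 TPM below and 1.836 and 10.4 TPM above, and *mal2*, a membrane protein of vesicle traffic, had 3.25 and 2.90 TPM below and 11.3 and 13.8 TPM above.

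The other 6 named genes have only a LOC identifier. LOC106674809 had 1472.5 and 1479.6 TPM below the threshold and 88.2 and 100.4 TPM above it. Its unadjusted p was the lowest among the named genes (log2 fold change 3.97 ± 0.56, SE, adjusted p = 0.075 in limma). Its 2 livers above the threshold lay under all riverine (419 to 1736 TPM) and benthic livers (341 to 892 TPM). LOC111500542 had 31.1 and 12.0 TPM below the threshold and is listed at 0 in both livers above it. LOC101473241 had 0 and 0.07 TPM below and 29.2 and 14.6 TPM above. LOC101485501 and LOC101473938 were higher and LOC101481448 lower in both livers below the threshold (adjusted p = 0.23 in limma for each).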

How the data were processed

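RRBS values of 35 wild males and liver RNA of 13 were read from 2 tables, with 0 columns left without a sample. For RRBS, the authors aligned trimmed reads to the *M. zebra* UMD2a genome with Bismark, and the deposited values give percent methylation per CG site. Column names carry a cov4 mark, taken as a minimum coverage. Reads per site were not used here, so depth behind a value is unknown and no counting interval is given. For RNA, the authors ran kallisto and deposited TPM, here summed from 51012 transcripts to 29676 genes by symbol. Genes entered the test at a mean of 0.1 TPM or more. Mapped reads and isotope ratios were taken from the supplementary tables of the study. Each fish is 1 library, and fish are the replicates.

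Sites and windows were tested with limma 3.58.1 (R 4.3.3, empirical Bayes with a trend) on the percentages of the 12 littoral fish, and genes on log2(TPM + 0.1) with all 13 livers in 4 groups. P-values were adjusted over all features (Benjamini–Hochberg). The 10 per-fish summaries were compared by exact permutation of the class labels (smallest p = 0.0022), and correlations used 100000 permutations. Software was the R package data.table (version 1.17.8) and numpy 2.4.6, pandas 2.3.3 and scipy 1.17.1 under Python 3.11.15. The fits were tested on simulated data.

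The rule named called features first. As none passed, it named those with the lowest unadjusted p that met the size limits and had no overlap between classes, at most 10 sites, 5 windows (3 met it) and 10 genes. Of these genes, 1 is not reported here. List members and sites beside a named site were chosen after their values were seen. Gene lists came from general knowledge, and genes with a LOC identifier are missing from them. The classes, lists and tests were chosen with earlier results of these data known. Promoters were not analysed and no sequence is printed, since no genome or annotation of the UMD2a build was used here. Alternatives were other models, covariates, thresholds, subsets, window sizes, pseudocounts and scalings. Residuals on the share of reads mapped, other limits for intermediate sites, a site test within G10 fish and the 11 added measures were chosen after seeing the data.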

Additional observations from a re-analysis of the deposited data

Results flagged for a closer look

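Of 70 sets of 6 fish checked for a fish far from the others, 7 were marked, and chance marks about 1 in 20. G08G02, below the threshold, had 56.2% mean methylation over all sites (the other 5 fish of its class 55.0 to 55.4%), 60.1% at intermediate sites (others 51.5 to 54.2%) and a position of 0.74 between riverine and benthic fish (others 0.17 to 0.36). On PC2, G10H05 below the threshold lay at −165 (others −58.2 to 3.00) and G10G05 above it at 334 (others −43.0 to 9.90). G10H05 has the fewest mapped reads of the 12 fish, 4.02 Mio. Among named sites, G10G06 had 91.2% at position 4810857 of NC_036788.1 (the other fish above the threshold 97.4 to 100%), and G10H02 had 50% at position 10144073 of NC_036793.1 (others 72.7 to 85%). None of these fish was left out of the main results.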

How the results depend on the processing

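No paired analysis was possible because the littoral fish are single livers that share no replicate number across the isotope classes. Promoter alternatives were not run, since no annotation of the genome build was used here. The count of 0 called sites held in all 25 alternatives but 1, the 7 fish with a G10 prefix, a fit added after seeing the data with 2 fish below and 5 above the threshold, which called 4 sites, all higher below. It was 0 without any fish in turn, and so was the count of 0 windows in all 15 alternatives. Genes called were 3 with a pseudocount of 0.01, 1 with no filter, 251 with the run as a covariate and 1 to 252 without a fish (0 otherwise); the run covariate is set by G08H10 and G10G05 alone among littoral fish. Of the summaries, 1 passed; without a fish in turn 0 to 1 passed, and 0 with at least 6 Mio reads, residuals on reads or on the share mapped, or within a prefix. The difference in the share of intermediate sites was −1.10 to −0.79 points without a fish (adjusted p = 0.022 to 0.11, exact permutation). It did not pass with at least 6 Mio reads (−1.07), residuals on log10 mapped reads (−0.90), residuals on the share mapped (−0.50), G10 fish (−1.02), G08 fish (−0.38), or limits of 10 and 90% (−1.795) or 30 and 70% (−0.40). With at least 6 Mio reads 3 fish remained below and 5 above the threshold, with a G10 prefix 2 and 5, and with a G08 prefix 4 and 1. So few fish allow too few arrangements for 1 summary alone to pass after adjustment, whatever its difference. Results that never passed changed sign in 26 alternatives, without passing there either.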

Other observations

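At 12819 pairs of positions 1 bp apart, taken as the cytosines on both strands of a CG, the values of the same fish differed by 6.59 ± 1.09 points on average below the threshold and by 7.14 ± 0.85 points above it (SD, n = 6 each; two-sided exact permutation p = 0.34, adjusted p = 0.42 over 11 added measures). Values of exactly 0 or 100% made up 60.1 ± 9.13% and 59.6 ± 8.18% of all values (SD, n = 6 each; exact permutation p = 0.91). The share was 48.8% in G08G02 with 14.4 Mio mapped reads and 72.3% in G10H05 with 4.02 Mio.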
